A study of Oryza sativa Indica Group with 36 samples.

Results

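The 150 genes described here were those with the steepest daily course among the noon-peaking genes of Guangluai4 (GL), an indica rice cultivar. For each locus, log2(CPM + 0.5) was averaged over the 3 GL libraries of each clock hour, CPM being a count scaled to a fixed library total. Loci with a rice OS identifier, their highest hourly mean at 12:00 and at least 10 CPM there numbered 680 of 35477 loci listed. They were ranked by the highest minus the lowest hourly mean, and the first 150 were taken, after 4 loci (OS07G0695100, OS03G0284100, OS09G0532400 and OS11G0157600) had been left out by the rule. The members were thus chosen by GL expression values, and their noon peak and steep course in GL are a description without a test. The second genotype, an OsPRR37 overexpression line in the same cultivar (OE), took no part in the choice.

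Uppermost fully expanded leaves were sampled from 45-day seedlings of both genotypes, grown in natural long days, every 4 h from 4:00 to 0:00. Each of the 12 combinations of genotype and hour had 3 libraries that the study calls biological repeats. GL is the cultivar itself, and OE was a single line, OsPRR37-OE5, so an effect of OsPRR37 and an effect of that line cannot be told apart. The promoter that drives the transgene is not given in the sources used here. Whether the 3 repeats came from separately grown plants is not stated either, and p-values measure the spread between these libraries.

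OsPRR37 is a pseudo-response regulator, a family of clock proteins that repress transcription in turn through the day, and in rice it delays flowering in long days. Leaves meet their highest light, temperature and evaporative demand around midday, and plant clocks set many genes of light capture, water movement and heat protection to daytime hours ahead of that load. Light-harvesting complexes capture light for the photosystems, aquaporins carry water across membranes, and heat stress transcription factors switch on chaperones that keep proteins folded.

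Total counts ran from 8065894 to 15769659 per library. CPM values here and below are on libraries scaled by the trimmed mean of M values (TMM). The highest and lowest hours of a member, and the difference between those, stay on the CPM of the choice unless TMM is named. OsPRR37 itself (OS07G0695100) ranged from 1.49 to 505 CPM in GL and from 800 to 1730 CPM in OE. GL replicate 3 at 0:00, labelled with the overexpression line in its genotype field, held 3.81 CPM of OsPRR37. That was near the 4.31 and 3.82 CPM of its fellow GL libraries, and its title placed it in GL. Small-subunit genes of Rubisco, the carbon-fixing enzyme, marked leaf tissue at 3590 to 23100 CPM for OS12G0274700 and 5030 to 17200 CPM for OS12G0291100. The meristem gene OSH1 (OS03G0727000) was listed at 0 in all 36 libraries, a glutelin gene of the seed (OS01G0762500) did not exceed 2.81 CPM, and the root silicon channel gene LSI1 (OS02G0745100) lay between 10.8 and 70.3 CPM. The summed level of 3 cellulose synthase genes of the secondary wall ran from 1.91 to 18.6 CPM in GL (median 5.13) and from 1.54 to 27.2 CPM in OE (median 11.1). Its part in the genotype differences below was not tested.

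In GL, the members' difference between highest and lowest hourly mean had a median of 4.16 log2 units, with quartiles of 3.51 and 5.06 and a smallest value of 3.08. Their noon levels spanned 14.2 to 34440 CPM with a median of 90.4, 20 members lying under 20 CPM and 23 above 1000 CPM. The night held the low point: the lowest GL hour was 0:00 for 53 members, 20:00 for 45 and 4:00 for 42, leaving 8 at 8:00 and 2 at 16:00. These few loci made up 12.9% to 14.9% of all counts in the 3 GL noon libraries and 1.24% to 1.64% at 20:00. In OE they made up 10.2% to 12.2% at noon and 0.835% to 1.15% at 20:00.

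Most members also stood high at noon in OE, in libraries the choice had not seen. The mean of the other hours used below includes the night, so exceeding it does not place the peak at noon itself. Of the 150 members, 147 changed over the 6 OE hours, where 68.6% of all 21772 genes tested did (edgeR quasi-likelihood F test, Benjamini-Hochberg adjusted p under 0.05, as in all calls below). At noon, 145 members were higher than the mean of the other 5 OE hours and 0 were lower, against 18.6% of all genes tested higher and 16.1% lower. The 5 remaining members did not pass the test. The members' median difference was 3.00 log2 units, with quartiles of 2.44 and 4.02, and the median of all genes tested was -0.02. For 60 members, all 3 OE noon libraries lay above each of the other 15 OE libraries, as they did for 2.01% of all genes tested. Because 20 members overlap another member on the chromosome and the libraries do not mark the strand of origin, such neighbours can share reads. Counted once per stretch of overlapping members, 135 of 140 stretches held a member called higher at OE noon.

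**Figure D1:**
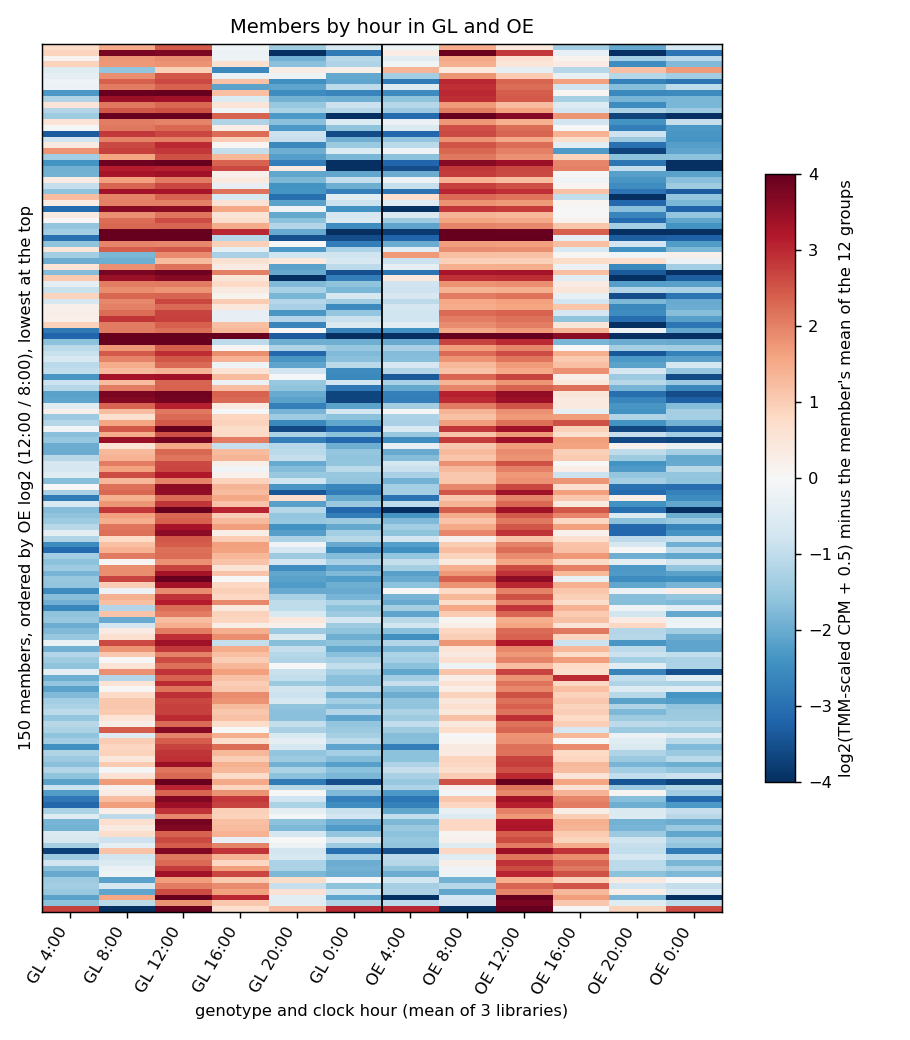
Heat map of the 150 members (rows) in the 12 groups (columns, mean of 3 libraries); colour gives log2(TMM-scaled CPM + 0.5) minus the member's own mean over the 12 groups, and rows are ordered by the OE difference between 12:00 and 8:00, with RCA in the last row. The 12:00 columns are red in both genotypes, the upper rows are red at 8:00 as well, and the lower rows stay red at 16:00.

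On the scale of the choice, 116 members (77.3%) also had their highest OE mean at 12:00, against 72.6% of the 680 candidates from which they were taken. The highest OE hour was 8:00 for 19 members, 16:00 for 13, 20:00 for 1 and 0:00 for 1. On TMM-scaled libraries, noon was the highest hour for 140 members in GL and 107 in OE, and 8:00 was the highest for 10 and 38. On the scale of the choice again, a single 24 h wave was fitted to the hourly means, with the period assumed. It gave the same median peak hour of 12.2 in GL and OE over the members other than RCA. The OE minus GL difference of that hour had a median of 0.04 h and quartiles of -0.17 and 0.42 h. The low point of OE, on the same scale, also fell in the night, at 20:00 for 50 members, 4:00 for 48 and 0:00 for 44.

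The members differed in how the noon level stood against its neighbouring hours. Noon was higher than 8:00 in OE for 71 members and lower for 2, with 77 not called, and 16.1% of all genes tested were higher and 16.8% lower. Noon was higher than 16:00 for 103 members and lower for 0, with 47 not called, and 14.5% of all genes tested were higher and 15.4% lower. The median differences of the members were 0.73 and 1.43 log2 units. Noon was called above both neighbours for 51 members, where 1.19% of all genes tested were, above 16:00 only for 52, above 8:00 only for 20 and above neither for 27. A difference that was not called does not show equal levels at the hours compared.

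Of the 150 members, 21 carry a name that could be placed in the reference used here, and the groups by function described next are counts among those 21 and not of the list. RCA (OS11G0707000, chromosome 11, 28932498 to 28936394, IRGSP-1.0 as throughout) encodes Rubisco activase, which frees blocked Rubisco, and held rank 1 through libraries listed at 0. Its noon libraries held 41900, 31610 and 29830 CPM in GL and 26580, 17010 and 20260 CPM in OE. All 6 libraries at 8:00, GL replicates 1 and 3 at 4:00 and OE replicate 1 at 4:00 were listed at 0, while GL replicate 2 at 4:00 held 26860 CPM. Such zeros beside levels of this height can be failed estimates. Over its libraries above 0 the GL difference between hours was 3.65 log2 units, which would rank 103, and the highest GL hour was 4:00, on 1 library. Its place in the list thus rested on the zeros, and without it 144 of the remaining members were higher at OE noon.

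Among the annotated members, 4 encode chlorophyll-binding proteins of the light-harvesting antenna, a family of near-identical copies whose reads may have been split between loci. CAB1R (OS09G0346500, chromosome 9, 10845836 to 10846633) had 12630, 12270 and 9550 CPM in the GL noon libraries and 8896, 8405 and 9643 CPM in the OE noon libraries. At 0:00 it had 5.63, 12.7 and 4.32 CPM in GL and 5.13, 4.95 and 18.2 CPM in OE, so noon and midnight were far apart in both genotypes. Its OE noon level was 5.88 ± 0.22 (SE) log2 units above the mean of the other hours (edgeR adjusted p = 2.41e-18). It also stood 1.01 ± 0.35 log2 units above 16:00 (adjusted p = 0.0281) and was not called against 8:00 (0.21 ± 0.35, adjusted p = 0.693).

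RCABP89 (OS03G0592500, chromosome 3, 21999957 to 22000973) had 26250, 18940 and 16330 CPM at noon in GL and 17630, 10250 and 12960 CPM in OE. At 8:00 the OE libraries held 17800, 11140 and 13220 CPM, and the ranges of both hours overlapped. RCABP69 (OS07G0562700, chromosome 7, 22487499 to 22488451) had 6209, 3900 and 4739 CPM at noon in OE and 8272, 4966 and 5907 CPM at 8:00, its highest OE hour. The libraries of both hours overlapped, and the test gave -0.37 ± 0.30 log2 units for noon against 8:00 (edgeR adjusted p = 0.387). CAB2R (OS01G0600900, chromosome 1, 23607433 to 23608218) had 24470, 20540 and 16070 CPM at noon in GL and 16540, 10740 and 13340 CPM in OE. It was called above neither neighbouring hour in OE, at 0.96 ± 0.47 log2 units against 8:00 and 0.90 ± 0.47 against 16:00 (adjusted p = 0.123 and 0.162). All 4 annotated antenna genes stood above the mean of the other OE hours, by 4.85 to 5.88 log2 units.

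Averaged over the 6 hours, these 4 annotated antenna genes were lower in OE. The GL libraries that chose the members enter this average, so it is not independent of the choice, and its calls, here and below, are given as a description. The log2 differences were -1.29 ± 0.20 (SE) for CAB2R, -1.02 ± 0.15 for RCABP89, -0.89 ± 0.13 for RCABP69 and -0.51 ± 0.14 for CAB1R (edgeR adjusted p = 1.21e-05, 4.86e-06, 4.36e-06 and 0.00928). The difference was widest at 4:00 for each of them. At that hour, RCABP89 had 407.6, 277.8 and 304.5 CPM in GL and 78.3, 70.9 and 31.4 CPM in OE. CAB2R at the same hour had 178.4, 647.6 and 339.2 CPM in GL and 20.5, 61.2 and 74.1 CPM in OE. The libraries of the genotypes did not overlap for either gene at 4:00, and at 8:00 they did. The CAB1R call was lost without GL replicate 2 (adjusted p = 0.0891) and with replicates 2 and 3 alone (adjusted p = 0.0526). OS01G0720500, a chlorophyll-binding member without a name in the reference, was not called on average (-0.49 ± 0.23, adjusted p = 0.118). That locus passed without OE replicate 1 (-0.88, adjusted p = 0.00621).

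On deposited FPKM, which scales fragments to transcript length and so allows a comparison between genes, RCABP89 and CAB2R led the annotated members at GL noon with 35100 ± 7720 and 27600 ± 5740 (SD, n = 3). The difference between those 2 was not tested. Their GL noon means were 20510 and 20360 CPM, at lengths of 792 and 786 bases. RCA followed at 23000 ± 5180, CAB1R at 15300 ± 2240 and RCABP69 at 9430 ± 1630. LYL1, OsTIP1;2, APX2, CHLH and OsTIP1;1 lay from 2540 down to 1230. The 4 annotated heat-related genes described below ranged from 346 ± 108 for HSFA2D to 26.2 ± 0.556 for HSFA3.

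Pigment genes made a second group of annotated members. CHLH (OS03G0323200, chromosome 3, 11711313 to 11720165) encodes the large subunit of magnesium chelatase, the entry to chlorophyll synthesis. Its noon libraries held 5620, 4962 and 5025 CPM in GL and 8253, 3273 and 3596 CPM in OE, where replicate 1 stood above the other libraries. At 8:00, its highest OE hour, the OE libraries held 7916, 5345 and 5830 CPM, which overlapped with noon. LYL1 (OS02G0744900, chromosome 2, 31246305 to 31248445) encodes a geranylgeranyl reductase that makes the phytyl tail of chlorophyll. It had 4980, 3436 and 2728 CPM at noon in GL and 4201, 2166 and 2579 CPM in OE. Both stood above the mean of the other OE hours at noon, CHLH by 2.85 ± 0.23 and LYL1 by 2.42 ± 0.20 log2 units (edgeR adjusted p = 5.13e-11 and 3.68e-11).

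OsZEP1 (OS04G0448900, chromosome 4, 22369560 to 22381505) encodes zeaxanthin epoxidase, which turns the photoprotective pigment zeaxanthin back into violaxanthin. Its noon libraries held 2034, 1615 and 1703 CPM in GL and 1672, 1360 and 1229 CPM in OE. No OE library of another hour exceeded 558.2 CPM, so OsZEP1 had a true noon maximum and no morning plateau. Noon exceeded 8:00 by 2.26 ± 0.16 and 16:00 by 1.40 ± 0.15 log2 units in OE (edgeR adjusted p = 5.95e-12 and 3.43e-08). Averaged over the hours, OsZEP1 was lower in OE by -0.45 ± 0.06 log2 units and LYL1 by -0.64 ± 0.12 (adjusted p = 3.27e-06 and 0.000186), while CHLH was not called at -0.26 ± 0.15 (adjusted p = 0.205). Without OE replicate 1, CHLH had -0.60 log2 units and passed (adjusted p = 0.000383). With the replicate number as a block it had -0.31 and also passed (adjusted p = 0.0307).

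3 annotated members are aquaporin genes. OsTIP1;2 (OS01G0975900, chromosome 1, 43116185 to 43117618) encodes a water channel of the vacuole membrane. It had 2082, 1836 and 1862 CPM at noon in GL and 783.4, 989 and 1174 CPM in OE. At 8:00 it had 208.7, 162.6 and 151.2 CPM in GL and 32.3, 44.0 and 35.2 CPM in OE. Every OE library lay below every GL library of its hour, at all 6 hours, as was the case for 3 of the 150 members and 0.358% of all genes tested. OsTIP1;2 was lower in OE by -1.70 ± 0.11 log2 units on average (edgeR adjusted p = 2.99e-12). Its noon maximum was kept: OE noon exceeded 8:00 by 4.72 ± 0.30 and 16:00 by 2.38 ± 0.27 log2 units (adjusted p = 9.99e-13 and 6.09e-08).

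OsTIP1;1 (OS03G0146100, chromosome 3, 2562826 to 2564631), of the same subfamily, had 1155, 965.2 and 929.3 CPM at noon in GL and 1001, 874.6 and 1085 CPM in OE. The genotypes overlapped at noon, and the averaged difference was 0.21 ± 0.12 log2 units (edgeR adjusted p = 0.201). Without GL replicate 1 it was 0.36 and passed (adjusted p = 0.0268). OsPIP1;3 (OS02G0823100, chromosome 2, 35349822 to 35350921), a water channel gene of the plasma membrane, had 706.2, 378.6 and 422.4 CPM at noon in GL and 247.5, 542.9 and 508.1 CPM in OE. The genotypes overlapped at noon for this gene too. At 0:00 its libraries held 39.1, 20.0 and 18.2 CPM in GL and 6.76, 3.02 and 6.44 CPM in OE, without overlap. Averaged over the day it was lower in OE by -1.28 ± 0.19 log2 units (adjusted p = 7.63e-06).

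OsHKT1;1 (OS04G0607500, chromosome 4, 30723799 to 30727188), a sodium transporter gene, had 40.6, 49.4 and 54.7 CPM at noon in GL and 23.4, 44.6 and 47.3 CPM in OE. Its OE values at 8:00 were 17.9, 46.2 and 42.2 CPM, which overlapped with noon, and noon was not called against 8:00 (0.12 ± 0.27 log2 units, edgeR adjusted p = 0.787). The averaged difference of -0.38 ± 0.13 log2 units (adjusted p = 0.0348) did not pass on log2(FPKM + 1) (adjusted p = 0.0627), nor when any of OE replicates 1 and 3 or GL replicates 2 and 3 was left out.

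4 annotated members belong to the heat response. HSFB2C (OS09G0526600, chromosome 9, 20591524 to 20595022) encodes a class B heat stress transcription factor. It had 89.8, 60.8 and 57.1 CPM at noon in GL and 48.0, 47.1 and 55.6 CPM in OE, and no OE library of another hour exceeded 15.2 CPM. OE noon was above 8:00 by 2.45 ± 0.30 and above 16:00 by 1.91 ± 0.29 log2 units (edgeR adjusted p = 2.58e-07 and 9.34e-06). HSFA2D (OS03G0161900, chromosome 3, 3342279 to 3342806), of the activating class A, had 202.3, 128.4 and 114.8 CPM at noon in GL and 113.2, 78.4 and 87.4 CPM in OE. The noon ranges did not overlap, with OE below GL, as for 8.00% of all genes tested. GL noon libraries chose the members, so such noon gaps, here and below, are a description without a test. HSFA2D was lower in OE on average by -0.82 ± 0.18 log2 units (adjusted p = 0.00102). The other 2 heat stress factor genes were not called in that contrast, HSFB2C at 0.34 ± 0.15 and HSFA3 at 0.06 ± 0.08 log2 units (adjusted p = 0.0946 and 0.64). HSFB2C passed without OE replicate 1, at 0.46 log2 units (adjusted p = 0.0254).

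HSFA3 (OS02G0527300, chromosome 2, 19309694 to 19313074), also of class A, had another daily form. Its lowest hour was 8:00 in both genotypes, at 1.80, 4.55 and 3.82 CPM in GL and 3.97, 3.96 and 4.40 CPM in OE. Noon libraries held 53.8, 54.6 and 56.2 CPM in GL and 54.3, 40.7 and 40.9 CPM in OE, and the level was still 24.1, 21.3 and 21.5 CPM in OE at 20:00. Noon exceeded 8:00 by 3.46 ± 0.21 log2 units in OE (edgeR adjusted p = 6.12e-13), while 0.46 ± 0.18 log2 units over 16:00 did not pass (adjusted p = 0.0587). HSFA3 thus rose between 8:00 and 12:00 and kept a raised level into the evening.

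OsHsp24.1 (OS02G0758000, chromosome 2, 31920921 to 31921688) encodes a small heat shock protein, a chaperone that holds unfolding proteins. Its noon libraries held 29.7, 24.2 and 19.7 CPM in GL and 18.5, 15.2 and 15.4 CPM in OE, without overlap. At 16:00 they held 14.8, 7.76 and 8.41 CPM in GL and 8.04, 50.7 and 55.2 CPM in OE. OE replicates 2 and 3 therefore stood above noon and replicate 1 below it, and the highest OE mean was at 16:00, with a difference of -1.22 ± 0.54 log2 units for noon against 16:00 that did not pass (edgeR adjusted p = 0.0894). The averaged rise of 0.91 ± 0.26 log2 units in OE (adjusted p = 0.00923) was 0.43 without OE replicate 3 (adjusted p = 0.232) and did not pass without GL replicate 2 (adjusted p = 0.0679).

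APX2 (OS07G0694700, chromosome 7, 29584033 to 29593849) encodes an ascorbate peroxidase, which removes hydrogen peroxide. Its noon libraries held 2142, 1767 and 1885 CPM in GL and 1833, 2124 and 1988 CPM in OE. At 16:00 the OE libraries held 1251, 1898 and 1782 CPM and overlapped with noon. APX2 was higher in OE on average by 0.25 ± 0.06 log2 units (edgeR adjusted p = 0.00183), with no overlap at 4:00 and 0:00. The lowest OE library at those hours was 185.9 CPM and the highest GL library 179.5 CPM. The plot of 12 annotated members by library shows these courses side by side.

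**Figure D2:**
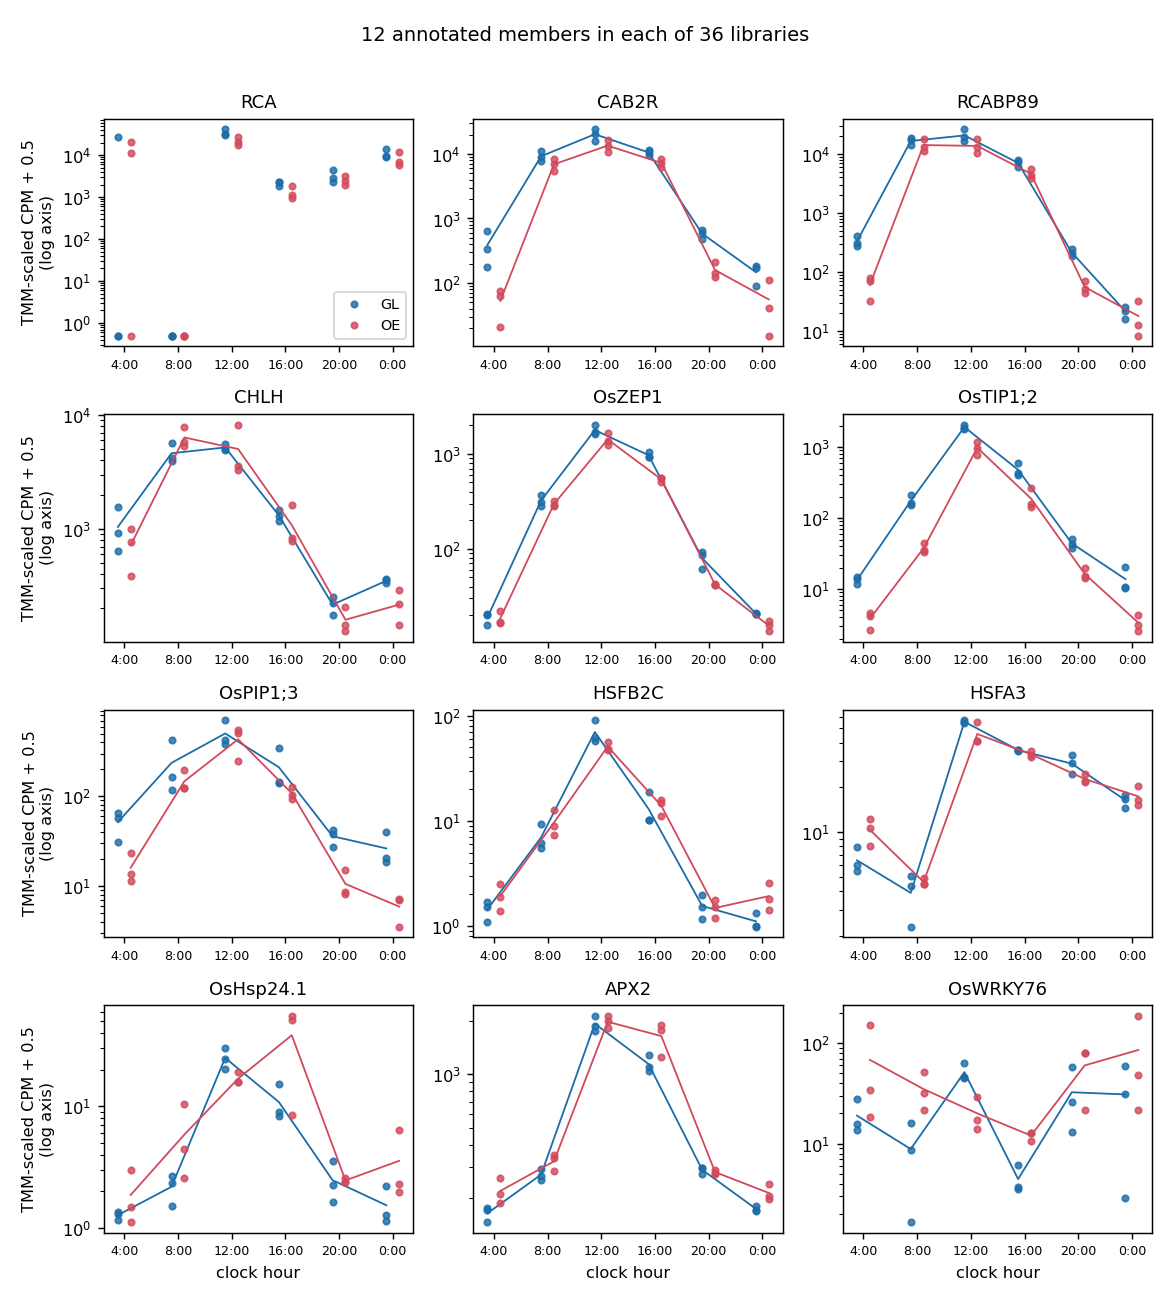
TMM-scaled CPM plus 0.5 on log axes against clock hour for 12 annotated members; each point is 1 library, lines join the means of 3 libraries (no line for RCA), blue is GL and red is OE, and a value of 0 is drawn at 0.5. OsTIP1;2 runs below GL at all 6 hours in OE, OsPIP1;3 and the antenna genes shown mainly in the dark hours. OsWRKY76 does not peak at noon in OE, and its replicates lie far apart at night in both genotypes.

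4 annotated members encode other regulators. OsWRKY76 (OS09G0417600, chromosome 9, 14976346 to 14977756), a WRKY transcription factor gene of pathogen and cold responses in rice, did not peak at noon in OE. Its noon libraries held 62.8, 46.0 and 44.2 CPM in GL and 28.6, 16.6 and 13.5 CPM in OE. Its replicates were far apart at other hours, with 18.1, 34.1 and 151 CPM at 4:00 and 21.3, 47.4 and 186.6 CPM at 0:00 in OE. In GL they held 2.36, 30.6 and 58.3 CPM at 0:00, where replicate 3 stood above its own noon level. OE noon was not called against the other hours at -1.13 ± 0.70 log2 units (edgeR adjusted p = 0.227). The averaged rise of 1.08 ± 0.35 log2 units (adjusted p = 0.0219) did not pass without OE replicate 2 or 3 or without GL replicate 1 or 2, with adjusted p-values up to 0.213.

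PP2C68 (OS09G0325700, chromosome 9, 9567551 to 9568627), a protein phosphatase 2C gene, had 22.2, 12.8 and 13.01 CPM at noon in GL and 11.3, 17.8 and 20.2 CPM in OE, which overlapped. It peaked above both neighbouring hours in OE, by 2.49 ± 0.53 log2 units over 8:00 and 1.45 ± 0.49 over 16:00 (edgeR adjusted p = 0.000459 and 0.0259). Its averaged difference of -0.82 ± 0.24 log2 units (adjusted p = 0.0117) did not pass without GL replicate 1 (adjusted p = 0.142) or OE replicate 2 (adjusted p = 0.111). OsiSAP1 (OS09G0486500, chromosome 9, 18760831 to 18761325), a zinc finger stress protein gene, had 44.8, 38.0 and 28.2 CPM at noon in GL and 18.6, 32.8 and 39.9 CPM in OE. It was called above neither neighbour in OE and not called on average (-0.14 ± 0.18, adjusted p = 0.62). APG (OS05G0139100, chromosome 5, 2246898 to 2248664), a bHLH gene that restrains grain length in rice, had 33.3, 26.2 and 23.9 CPM at noon in GL and 16.6, 14.5 and 12.97 CPM in OE. The noon ranges did not overlap, and the averaged difference of -0.40 ± 0.16 log2 units was not called (adjusted p = 0.0663). It passed without OE replicate 1 (adjusted p = 0.0454), without GL replicate 3 (adjusted p = 0.0401) and with the replicate number as a block (adjusted p = 0.0391).

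Over the whole list, the level averaged over the day was lower in OE for 54 members and higher for 12, with 84 not called, against 12.0% of all genes tested lower and 14% higher. With a random block for libraries of 1 genotype and replicate number (limma voom), 33 members were lower and 4 higher, against 4.82% and 5.32% of all genes tested. In that fit the averaged calls given above or below for CAB1R, OsHKT1;1, OsHsp24.1, OsWRKY76, PP2C68, OS04G0581100 and OS05G0582000 did not pass, with adjusted p from 0.0553 to 0.419. The members' median difference was -0.29 log2 units, with quartiles of -0.64 and 0.08, and the median of all genes tested was -0.003. Of the 54 lower members, 54 were still called above their other hours at OE noon. In bulk leaf RNA, fewer cells of a type and less RNA per cell cannot be told apart. GL replicate 1 stood 0.26 log2 units above replicates 2 and 3 in the median of the members, where all genes tested stood at 0.01. OE replicate 1 likewise stood 0.15 log2 units above OE replicates 2 and 3, where all genes tested stood at 0.005. Without GL replicate 1, 42 members were lower and 22 higher, against 10.1% and 11.4% of all genes tested. Without GL replicate 2, 49 were lower and 7 higher, against 9.31% and 11.4%. Among the 21 annotated members, 11 were lower and 3 higher.

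**Figure D3:**
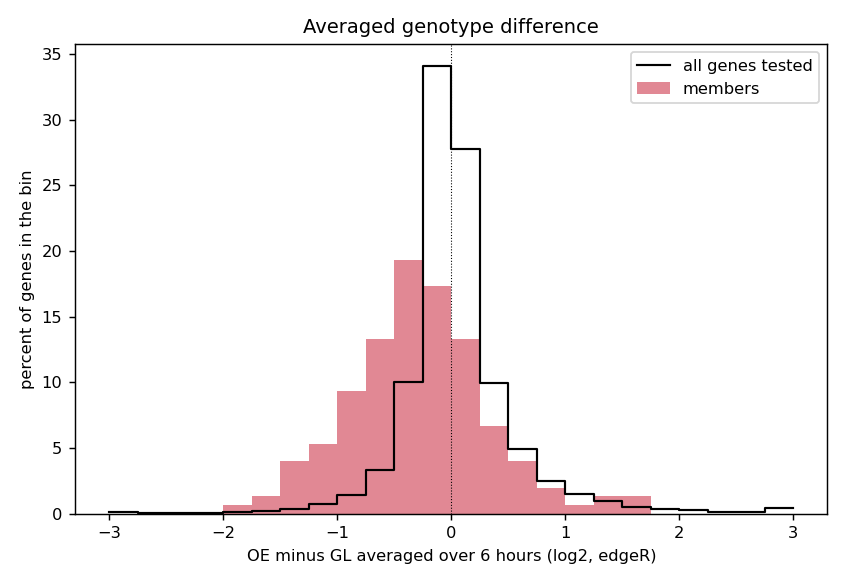
Histogram of the OE minus GL difference averaged over 6 hours, in log2 units from edgeR, for the 150 members (filled bars) and all 21772 genes tested (line), each as a percent of its own total in bins of 0.25, with values beyond 3 or -3 put in the outermost bins. The members' bars lie to the left of the line, with a median of -0.29 log2 units.

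The largest averaged rises were in loci without a name in the reference used here. OS04G0581100 had 21.9, 12.6 and 14.4 CPM at noon in GL and 17.8, 8.24 and 3.02 CPM in OE, with 1 OE library at 4:00 reaching 38.3 CPM. It was higher in OE by 1.67 ± 0.39 log2 units (edgeR adjusted p = 0.00172, and 0.281 with the random block). A change over the OE hours was not called (adjusted p = 0.167). Its OE difference between hours was the smallest of the list, 0.82 log2 units. Without OE replicate 3 its OE noon stood 1.60 log2 units above the other hours and passed (adjusted p = 0.0301). OS03G0303100 had 22.95, 18.1 and 18.2 CPM at noon in GL and 17.3, 21.2 and 24.12 CPM in OE, and the genotypes overlapped there. Its night level set them apart, with 0.47, 0.12 and 0.73 CPM in GL and 5.28, 4.49 and 4.87 CPM in OE at 4:00. OS03G0303100 was higher in OE by 1.61 ± 0.13 log2 units (adjusted p = 1.7e-10), and the steepness of its course was 4.14 log2 units in GL against 1.71 in OE.

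Among the falls, OS05G0582000 had 67.3, 39.1 and 46.7 CPM at noon in GL and 17.7, 12.4 and 16.4 CPM in OE, without overlap. All its OE libraries at 4:00 and 0:00 were listed at 0, so its fitted average depends on the floor, and summed counts over the day, scaled to depth, were 2.76-fold higher in GL. That fall did not pass without any single one of OE replicates 1 to 3 or GL replicates 1 and 2 (adjusted p from 0.0713 to 1). OS01G0179600 had 443.6, 354.7 and 263 CPM at noon in GL and 214, 192.3 and 190.6 CPM in OE. It was lower by -1.35 ± 0.17 log2 units on average (edgeR adjusted p = 7.54e-07), and at 4:00 the OE libraries held 41.1, 44.0 and 48.1 CPM against 167.1, 212.7 and 140.3 CPM in GL.

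At single hours, the GL libraries that chose the members enter the comparison, so these values carry no test. The median OE minus GL difference of the members was -0.44 log2 units at noon, -0.31 at 4:00, -0.31 at 16:00, -0.22 at 8:00, -0.18 at 20:00 and -0.05 at 0:00, and that of all genes tested lay between -0.025 and 0.003. Without TMM scaling, all genes tested shifted to 0.16 at noon and 0.13 at 4:00, and the members' medians were -0.25 and -0.17. At noon the 3 OE libraries lay wholly below the 3 GL libraries for 55 members (8.00% of all genes tested) and wholly above for 2 (8.40%). At 4:00 these counts were 39 below (9.21%) and 8 above (7.93%), and at 8:00 they were 33 (11%) and 17 (10.8%). At 16:00 they were 38 (13.3%) and 9 (10.9%), at 20:00 35 (11.4%) and 6 (9.76%), and at 0:00 31 (8.59%) and 8 (9.32%). The difference between highest and lowest hour had a median of 4.08 log2 units in OE and was below the GL value for 94 members and above it for 56. Because the rule ranked the members by that difference in GL, the choice itself favours smaller values in OE, and the split carries no test.

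**Figure D4:**
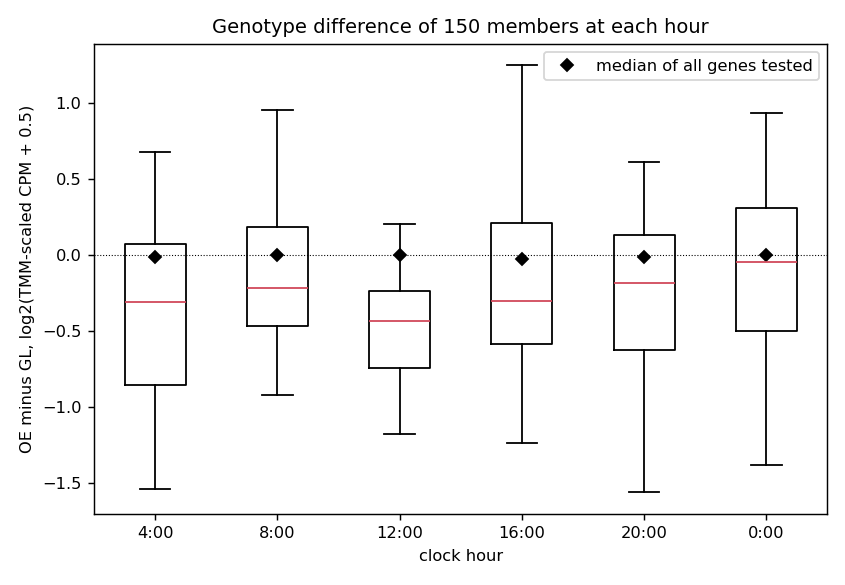
Boxes show the OE minus GL difference in mean log2(TMM-scaled CPM + 0.5) of the 150 members at each clock hour (median in red, quartiles, whiskers from the 5th to the 95th percentile), and diamonds the median of all genes tested. The median of the members lies below the diamonds at each hour, from -0.44 at noon to -0.05 at 0:00.

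5 members were not called above their other hours at OE noon. Besides OsWRKY76 and OS04G0581100 these were OS04G0561500, OS06G0697000 and OS07G0595700, at 1.03 ± 0.95, 0.73 ± 0.52 and 1.89 ± 0.77 log2 units (edgeR adjusted p = 0.439, 0.301 and 0.0568). OS04G0561500 followed the replicate number, with 364.7, 1228 and 852.9 CPM at noon in GL and 79.2, 432.9 and 481.4 CPM in OE, replicate 1 being lowest in both. OS07G0595700 had 0.33, 6.81 and 12.8 CPM at noon in OE and 26.5, 0.41 and 8.22 CPM at 8:00, so its replicates disagreed on the order of the hours. Of the 19 members highest at 8:00 in OE, 2 were called lower at noon than at 8:00, OS01G0130200 (-1.11 ± 0.36 log2 units, adjusted p = 0.0159) and OS02G0137700. OS02G0137700 had 316.6, 236.8 and 233.5 CPM at noon and 685, 510.7 and 494.7 CPM at 8:00 in OE, without overlap, a noon difference of -1.10 ± 0.28 log2 units (adjusted p = 0.00245). The chlorophyll-binding gene OS01G0720500 had 2764, 1411 and 785.9 CPM at noon and 3650, 1888 and 2480 CPM at 8:00 in OE, which overlapped.

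Ranks 4 and 5 went to OS03G0782200 and OS07G0178700, which the reference used here does not name. OS03G0782200 had 634.6, 426.1 and 373.6 CPM at noon in GL and 590.8, 252.6 and 131.8 CPM in OE, and no library of either genotype exceeded 0.602 CPM at 4:00, 20:00 or 0:00. OS07G0178700 had 902.1, 374.7 and 803.1 CPM at noon in GL and 157, 787.2 and 374.6 CPM in OE, a wide spread in both. Neither was called on average (edgeR adjusted p = 0.49 and 0.991). At the other end of the list, the differences between GL hours were 3.08 for the last 2 members (OS01G0769700 and OS01G0804400) and 3.06 for the next 2 loci (OS03G0310900 and OS05G0311500), just outside.

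The members lay on all 12 chromosomes, with 29 on chromosome 3 (1.00% of the tested genes there), 21 on chromosome 1 (0.68%) and 2 on chromosome 11 (0.18%). Their transcripts had a median length of 1305 bases against 1599 for all genes tested, and for 27.3% of members the transcript filled the whole locus, as in genes without introns, against 21.2% of all genes tested. 59 members overlapped another locus. Among annotated members, LYL1, HSFB2C and OsTIP1;1 each overlapped another member on the opposite strand (OS02G0744851, OS09G0526650 and OS03G0146200), and RCABP89, RCABP69, OsZEP1 and OsHsp24.1 overlapped opposite-strand loci that were not members. 1 member, OS03G0284150, overlapped OS03G0284100, which the rule had left out.

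The same rule applied to other hours gave lists of 150 genes that peaked at 8:00 and at 16:00 in GL. The peak hour was kept in OE by 148 genes of the 8:00 list, 116 of the noon list and 133 of the 16:00 list. Of the 680 noon candidates 72.6% kept it, and no such share is given here for 8:00 and 16:00. On average over the day, 93 genes of the 8:00 list were lower in OE and 2 higher. Of the 16:00 list, 10 were lower and 46 higher, against 54 lower and 12 higher in the noon list. Of all 21772 genes tested, 12.0% were lower and 14% higher. The differences between the lists were not tested.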

How the data were processed

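RNA sequencing of rice leaves was deposited as 1 file for each of 36 libraries. The submitters' processing notes name the build IRGSP-1.0 with TopHat2, Cufflinks and Cuffdiff, whose versions these sources do not give. The whole numbers of the deposited count column were treated like expected counts rounded up by the authors, since 99.56% of counts above 0 lie 0 to 1 above the deposited normalised signal divided by 1 factor per library. The deposited FPKM values, fragments scaled to length and library size by the authors, were used for levels between genes and as an alternative. Total counts per library ran from 8065894 to 15769659. RNA was DNase-treated, and the kit named in the labels does not mark strand.

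Libraries were grouped by title. CPM was computed from the counts. The count sum was used for the choice of members, highest and lowest hours, differences between those, the fitted wave and shares of counts. TMM-scaled sums were used elsewhere and where named. Tests used edgeR 4.0.16 (R 4.3.3): filterByExpr (minimum count 10), TMM, a quasi-likelihood F test in 1 model of the 12 groups with 24 residual degrees of freedom, and Benjamini-Hochberg adjustment over all 21772 genes kept, with a threshold of 0.05. All 150 members passed the filter. The steps were tested on simulated data. Alternatives used limma 3.58.1, DESeq2 1.42.0, other scalings, no filter, replicate blocks and single replicates left out.

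The members, lists and tests were chosen with earlier results of these data known. Named were the first ranks, the largest averaged rises and falls, members with another OE peak hour or the smallest OE range, and the ranks at the edge of the list, with loci without a name limited to 2 in each case. All 21 members whose name could be placed on the same chromosome within 5 Mb in the reference table (assembly ASM3414082v1) were named too, as were OS04G0561500, OS06G0697000, OS07G0595700, OS01G0130200 and OS03G0284150, a decision made after values were seen. Keyword lists of gene functions and promoter motifs were not applied, because the reference table used here holds neither descriptions nor sequences.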

Additional observations from a re-analysis of the deposited data

Results flagged for a closer look

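OS01G0130200 moved in opposite directions from 8:00 to 12:00 in the genotypes. In GL its libraries held 26.2, 26.4 and 23.4 CPM at 8:00 and 52.2, 46.6 and 48.7 CPM at 12:00. In OE they held 20.1, 24.96 and 30.5 CPM at 8:00 and 12.4, 13.1 and 9.47 CPM at 12:00. Every noon library was thus above every 8:00 library in GL and below it in OE, with a difference in mean log2(TMM-scaled CPM + 0.5) of 0.94 in GL and -1.07 in OE. The difference between the genotypes was not tested, because the GL rise to noon chose the locus. In OE alone, noon was lower than 8:00 by -1.11 ± 0.36 (SE) log2 units (edgeR adjusted p = 0.0159), and OS01G0130200 was still called above the mean of the other 5 OE hours (1.09 ± 0.27, adjusted p = 0.00166).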

How the results depend on the processing

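The counts of calls in OE alone stayed within 1.5 times under the alternatives run. Members changing over the hours numbered at least 142, members higher at noon 142 to 147 (144 without RCA, an alternative added after the data were seen), members above 8:00 59 to 78 and members above 16:00 87 to 115. Members peaking at noon in OE numbered 105 to 117, but on TMM-scaled libraries those highest at 8:00 in OE numbered 38 in place of 19 and those at 16:00 4 in place of 13. The choice itself moved more: 128 members were shared with a list chosen on TMM-scaled CPM, 141 with log2(CPM + 1), 115 on FPKM, and 128 to 135 without single GL replicates. The averaged genotype difference depended most on the replicates. Leaving out single replicates gave 7 to 22 members higher and 42 to 71 lower. Over all genes tested, those fits called 2057 of 22027 (without OE replicate 2) to 3673 of 22041 (without OE replicate 1) higher. They called 1789 of 22027 to 4051 of 22041 lower in the same 2 fits. With replicates 2 and 3 alone, 23 members were higher, against 16.9% of all genes tested. The cause was not tested. Same-numbered GL and OE libraries deviated together in 16 of 18 pairs (r over 0.1, with 0.0637 to 0.521 over all pairs). Of the libraries, 15 GL and 13 OE correlated best with their own number. Because 2 pairs fell short of r 0.1, the main model did not pair the libraries by number. All same-numbered r were positive, so this choice does not show the libraries to be unpaired. With the replicate number as a block, 20 members were higher and 66 lower, against 17.2% and 15.7% of all genes tested, and the averaged falls of APG (-0.39, adjusted p = 0.0391), CHLH (-0.31, 0.0307) and OS01G0720500 (-0.56, 0.0273) passed. With a random block in limma voom 4 were higher and 33 lower, against 5.32% and 4.82%. In the block fits, 147 members were higher at OE noon. Of 961 settings of 31 named members, 909 kept the call, 34 lost it, 18 gained it and 0 turned the direction of a called value. Members under 20 CPM at noon rest on the fewest reads.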
